A study of Mus musculus with 12 samples.

Results

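The proteasome genes described here are the gene symbols that begin with Psma, Psmb, Psmc, Psmd, Psme, Psmf or Psmg, leaving out the immunoproteasome genes Psmb8, Psmb9, Psmb10 and Psme2. There were 45 of them among the 23366 symbols in each of 3 deposited tables, and the rule reads symbols only, though it was written with earlier results of these data known. Of the 45, 44 reached a value of 10 in 2 or more libraries of every table and were tested, and Psma8 did not. Psmc3ip carries a proteasome-like symbol but encodes a partner of the meiotic recombinases and is no proteasome subunit, so 44 of the 45 are proteasome genes by function. Total RNA depleted of ribosomal RNA was sequenced from Beko cells, a mouse pre-T cell line, in 12 libraries that form 6 groups of 2. One group received 10 µg/ml DAPT, an inhibitor of gamma-secretase and so of the cleavage that activates Notch receptors, for 24 h, and its controls received DMSO. Another received 0.01 µg/ml apicidin, an inhibitor of several histone deacetylases, for 24 h, with DMSO controls of its own. The last carried a plasmid-borne short hairpin RNA against the deacetylase gene Hdac3 (shHdac3) and was compared with a scrambled hairpin, both at 96 h after puromycin. All groups share the same line and medium, both hairpin groups went through infection and puromycin, and the labels name a single Hdac3 hairpin. The series title places the comparisons in a study of how Notch target genes are expressed when HDAC3 function is lost. The labels do not say whether the replicates of a group came from separate cultures, so the p-values reflect how far these libraries spread, and that spread may be technical.

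The proteasome degrades proteins tagged with ubiquitin. Its core particle is a barrel of alpha rings (Psma genes), which gate the entrance, and beta rings (Psmb genes), which hold the proteolytic sites. The regulatory particle caps the barrel: a base of ATPases (Psmc genes) and scaffold subunits unfolds and threads the substrate, and a lid (most Psmd genes) removes the ubiquitin chain. Assembly chaperones (Psmg genes and Psmd5, Psmd9 and Psmd10) build these pieces, and Psme and Psmf1 proteins bind the core ends as activators or an inhibitor. In lymphoid cells the proteasome also makes the peptides shown on MHC class I and turns over cell-cycle and NF-kappaB regulators. Subunit genes are known to be induced together by the transcription factor NFE2L1 when proteasome activity falls short.

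Reads assigned to symbols ranged from 21766984 to 42815304 per library, with the deepest libraries in the DAPT experiment. Replicate libraries differed by more than sampling noise in each group. Below, values of single libraries are normalized reads, given as library 1 and library 2 of a group. Hdac3 itself was at 774 and 819 with shHdac3 against 2012 and 1930.1 with scrambled (log2 change -1.31 ± 0.055, adjusted p = 7.6e-25). All 10 pre-T markers reached 10 or more, the 3 erythroid markers were at 0 in every library, and both NK markers stayed under 10. The summed pre-T markers were 96273 and 97341 with DAPT against 127146 and 130801 with DMSO. They were 50495 and 51071 with apicidin against 79042 and 78788, and in the hairpin experiment 56266 and 55253 against 82809.7 and 82611. Rag1 made up the largest part of each sum, and the list did not move as one: with DAPT, Cd4 (10781 and 10935 against 7813 and 7941) and Cd8a (3895 and 3830 against 2835 and 2778) lay above their controls and the other 8 below. The 5 myeloid markers, 3 of them never above 10, summed to 663 and 583 with DAPT against 359 and 373, to 886 and 832 with apicidin against 622 and 607, and to 445 and 419 with shHdac3 against 399 and 434. Most of the myeloid sum was Itgam, at 526 and 451 with DAPT against 235 and 239, while Cd68 was at 131 and 117 against 119 and 127. The 3 stromal markers summed to 80.2 and 82.3 with DAPT against 36.9 and 31.3, to 49.2 and 42.7 with apicidin against 27.3 and 22.9, and to 36.0 and 39.6 with shHdac3 against 32.7 and 49.1, and the 5 B cell markers to at most 23.5 in any library. Symbols beginning with Hist took 15.4% to 21.4% of the reads and the pre-rRNA gene Rn45s took 1.39% to 3.19%. Leaving histone and structural RNA symbols out of the size factors and fits left the members called at 38, 15 and 24 in the DAPT, apicidin and hairpin experiments. The part of the marker changes in the results below was not tested. In these bulk samples, fewer cells of a type and less RNA per cell cannot be told apart.

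The 45 genes together took 0.515% and 0.513% of the reads with DAPT against 0.565% and 0.577% with its DMSO. They took 0.474% and 0.476% with apicidin against 0.443% and 0.418%, and in the hairpin experiment 0.470% and 0.471% against 0.430% and 0.414% for the scrambled controls. The groups did not overlap in any of the 3 experiments: the share was lower with DAPT and higher with apicidin and shHdac3. Gene by gene, 37 of the 44 tested members were lower with DAPT and 1 was higher. With apicidin 10 were higher and 5 lower, and with shHdac3 23 were higher and 1 lower. These counts use limma on log2(value + 1) with a Benjamini-Hochberg adjusted p under 0.05, adjusted over all genes tested in each table. Parentheses after a gene's values give its log2 change ± SE and that adjusted p. Where a call is said to be lost without a library, the number in parentheses is the adjusted p of the fit that leaves it out. The plot of all members by library shows that both DAPT libraries lay below their controls and both shHdac3 libraries above theirs for most members.

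**Figure D1:**
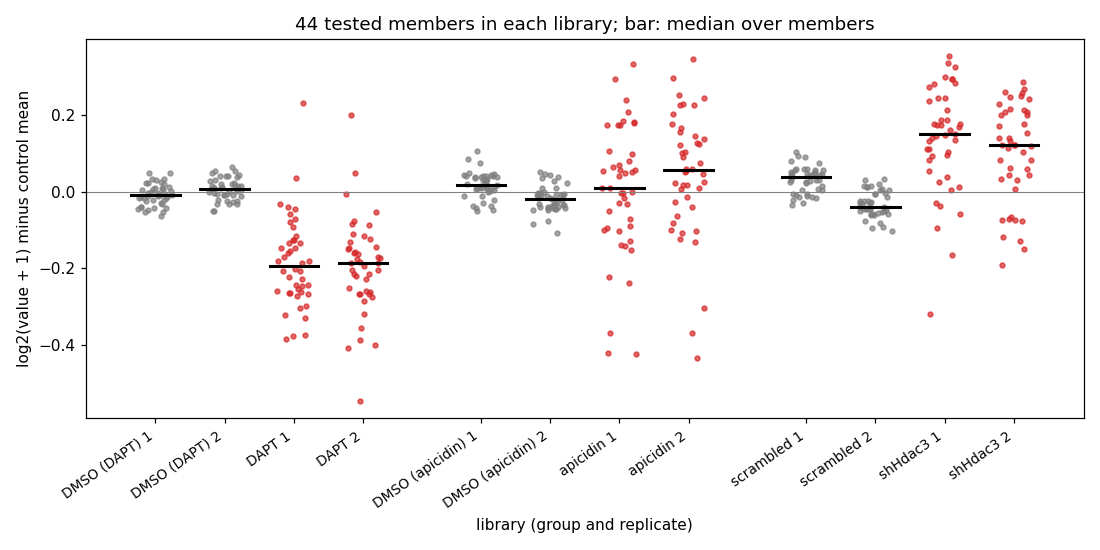
Each point is 1 of the 44 tested members in 1 library, as log2(value + 1) minus the mean of the control libraries of that experiment; bars are medians over members. Members lie mostly below 0 in both DAPT libraries, on both sides of 0 in both apicidin libraries, and mostly above 0 in both shHdac3 libraries.

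Read across the experiments, 8 members passed the test as lower with DAPT and higher with both apicidin and shHdac3. They were the alpha subunits Psma1 and Psma6, the beta subunit Psmb2 and the ATPases Psmc1 and Psmc6. The rest were the lid subunits Psmd3, Psmd6 and Psmd12. By the adjusted p of the authors' deposited tables, Psma1, Psmc1 and Psmd3 alone of these passed in all 3 experiments. Not passing there were Psma6 (0.070) and Psmb2 (0.058) with shHdac3, Psmc6 (0.084) with DAPT, and Psmd6 (0.057) and Psmd12 (0.17) with apicidin. By the limma calls, another 13 were lower with DAPT and higher with shHdac3 without passing under apicidin, and 12 passed under DAPT alone. Lower with both DAPT and apicidin were 4: Psmb6, Psmd9, Psmg4 and Psmc3ip. Psme4 was higher with both apicidin and shHdac3, Psmc3 passed with shHdac3 alone, as higher, and Psmd8 (higher) and Psme1 (lower) passed with apicidin alone. Psmb11 stood alone in passing as higher with DAPT and lower with shHdac3, and the ubiquitin receptor Psmd4 and the chaperone Psmd10 passed in none. Of the 37 members lower with DAPT, 21 were higher with shHdac3, which is 56.8% of the first list and 91.3% of the second. Over all 12204 genes tested in the 3 tables these shares were 39.4% and 41.5%. The 8 members lower with DAPT and higher with apicidin are 21.6% of the first list and 80% of the second, where the shares over all genes were 11.96% and 15.7%. The 4 members lower with both DAPT and apicidin are 10.8% and 80% of their lists, where the shares over all genes were 30.9% and 36.8%. The members' shares also depend on their separate counts. Of the 44, 37 were lower with DAPT, 23 higher with shHdac3, and 10 higher and 5 lower with apicidin. Whether the members overlap more or less than these counts alone would give was not tested. The experiments have no control library in common.

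**Figure D2:**
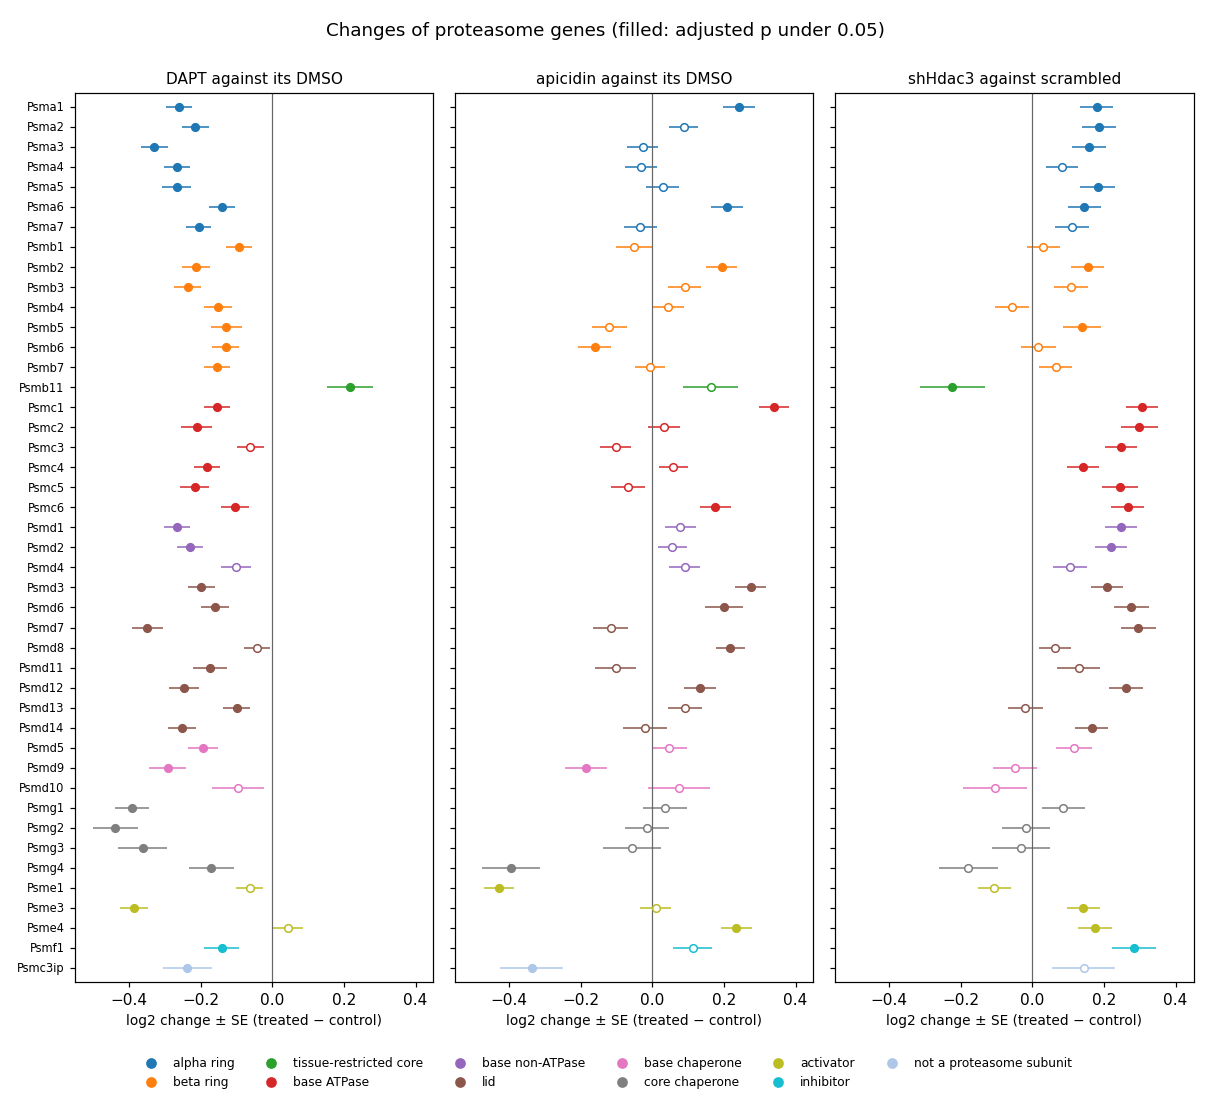
Log2 change ± SE (limma) of each of the 44 tested members, treated minus control, in the 3 experiments, with colour for role and filled points for an adjusted p under 0.05. Nearly all points lie left of 0 with DAPT, the ATPases lie right of 0 with shHdac3, and with apicidin Psmc1 (0.34) and Psme1 (-0.43) mark the ends.

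Promoter sequences are shown for 5 members from 3 of these patterns, taken from RefSeq (GRCm38.p6, 250 bases before to 50 after each gene start). The table held 37 of the 45 members. Capitals mark matches, on either strand, to 4 motifs: TGACNNNGC (core of the antioxidant response element, bound by NFE2L1 and NFE2L2), CCAAT (bound by NF-Y), CACGTG (the E-box of MYC and MAX) and CCGGAA (an ETS factor core). Psmc1, Psmc6 and Psma1 were lower with DAPT and higher with apicidin and shHdac3, Psmg4 was lower with DAPT and apicidin, and Psmb11 was higher with DAPT and lower with shHdac3. They lie at chr12:100109952-100110251 (plus strand), chr14:45329574-45329873 (plus strand), chr7:114276067-114276366 (minus strand), chr13:34162714-34163013 (plus strand) and chr14:54625060-54625359 (plus strand).
Psmc1: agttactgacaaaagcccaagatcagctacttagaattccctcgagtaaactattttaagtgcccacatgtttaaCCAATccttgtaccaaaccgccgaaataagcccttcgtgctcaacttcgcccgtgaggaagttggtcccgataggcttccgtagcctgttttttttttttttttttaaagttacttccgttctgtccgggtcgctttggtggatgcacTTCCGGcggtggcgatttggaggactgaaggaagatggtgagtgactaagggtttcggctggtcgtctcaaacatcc
Psmc6: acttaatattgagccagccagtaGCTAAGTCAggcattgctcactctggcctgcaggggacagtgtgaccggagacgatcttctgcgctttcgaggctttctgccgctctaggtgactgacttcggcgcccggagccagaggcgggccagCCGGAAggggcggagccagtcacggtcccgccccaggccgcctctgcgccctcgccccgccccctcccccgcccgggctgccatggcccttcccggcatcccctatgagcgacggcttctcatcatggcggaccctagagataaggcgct
Psma1: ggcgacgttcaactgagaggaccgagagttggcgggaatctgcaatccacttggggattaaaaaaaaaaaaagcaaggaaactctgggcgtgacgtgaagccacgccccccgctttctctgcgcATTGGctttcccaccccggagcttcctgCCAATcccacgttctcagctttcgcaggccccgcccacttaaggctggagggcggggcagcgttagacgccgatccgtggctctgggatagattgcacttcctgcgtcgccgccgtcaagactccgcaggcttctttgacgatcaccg
Psmg4: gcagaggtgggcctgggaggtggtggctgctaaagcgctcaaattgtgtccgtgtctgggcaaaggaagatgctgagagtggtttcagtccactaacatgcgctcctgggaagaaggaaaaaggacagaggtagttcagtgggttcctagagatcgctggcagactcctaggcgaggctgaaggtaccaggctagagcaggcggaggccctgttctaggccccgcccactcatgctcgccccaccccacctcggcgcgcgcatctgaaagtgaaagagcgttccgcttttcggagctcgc
Psmb11: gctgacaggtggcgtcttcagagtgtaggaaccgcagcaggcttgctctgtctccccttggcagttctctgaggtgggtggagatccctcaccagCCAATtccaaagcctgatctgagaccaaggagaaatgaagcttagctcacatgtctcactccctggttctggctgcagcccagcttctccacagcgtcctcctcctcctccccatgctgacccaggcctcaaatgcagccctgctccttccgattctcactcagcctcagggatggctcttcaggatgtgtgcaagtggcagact
In these windows Psmc1 holds a CCAAT and a CCGGAA, Psmc6 a TGACNNNGC and a CCGGAA, Psma1 a pair of CCAAT boxes on opposite strands and Psmb11 a CCAAT, while Psmg4 holds none of the 4.

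Over the 37 promoters, CCGGAA occurred in 20 (54.1%), against 14.9% of 32851 promoters of the same length and 27.0% of the 11855 promoters of genes tested in the DAPT table. They are Psma2, Psma5, Psmb4, Psmc1, Psmc2, Psmc3ip, Psmc5, Psmc6, Psmd2, Psmd4, Psmd6, Psmd10, Psmd11, Psmd12, Psmd13, Psme3, Psme4, Psmf1, Psmg1 and Psmg3. TGACNNNGC occurred in 6 (16.2%): Psmb5, Psmb6, Psmc6, Psmd9, Psmd12 and Psme4. Its share was 12.4% over all promoters and 14.4% over those of tested genes. CCAAT occurred in 14 (37.8%), against 37.4% of all promoters and 37.8% of those of tested genes. CACGTG occurred in 3 (8.11%), namely Psma4, Psmd9 and Psme3, against 7.15% of all promoters and 9.81% of those of tested genes. Mean GC content was 58.6% in the members' promoters, 60.4% in those of tested genes and 53.8% in all. These are letter matches in fixed windows, given as a description with no test.

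Levels between genes were compared per length, as normalized reads per kilobase of transcript (GENCODE vM21), within the DMSO libraries of the DAPT experiment. The 4 highest members were core ring subunits: the alpha subunit Psma6 stood at 8421 and 8668, the beta subunits Psmb3 at 8477 and 8425 and Psmb6 at 8437 and 8359.7, and Psma7 at 8019 and 7918. The ranges of the first 3 overlap, so their order is not resolved. Subunits that occur once per ring differed 3.01-fold across the alpha ring, lowest for Psma3 (2835), and 2.66-fold across the beta ring, lowest for the catalytic Psmb5 (3174). ATPase transcripts spanned 2.35-fold, from Psmc2 (2137) to Psmc4 (5024). Lid transcripts spanned 8.53-fold, from Psmd11 (628) to Psmd8 (5358). Chaperones were lower, from 499.8 for Psmd10 to 1736 for Psmg1, and the inhibitor Psmf1 stood at 413. Psmb11 was at 158 and 151 per kilobase, the lowest of the detected members. Psmb6, Psma7, Psmb3 and Psma6 were also the 4 highest members in the control libraries of the other experiments, in another order. These orders depend on the length used. With the exons of all coding transcripts of the basic annotation in place of the selected transcript, Psmb3, Psmb6, Psma6 and Psmb2 led in the DAPT controls, and Psmb6, Psmb3, Psmb2 and Psme1 in the controls of the other experiments. In the DAPT controls Psmd8 then moved from rank 9 to rank 18 and Psmb1 from rank 16 to rank 28, where Psmb1 (2291) in place of Psmb5 was lowest of the beta ring.

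**Figure D3:**
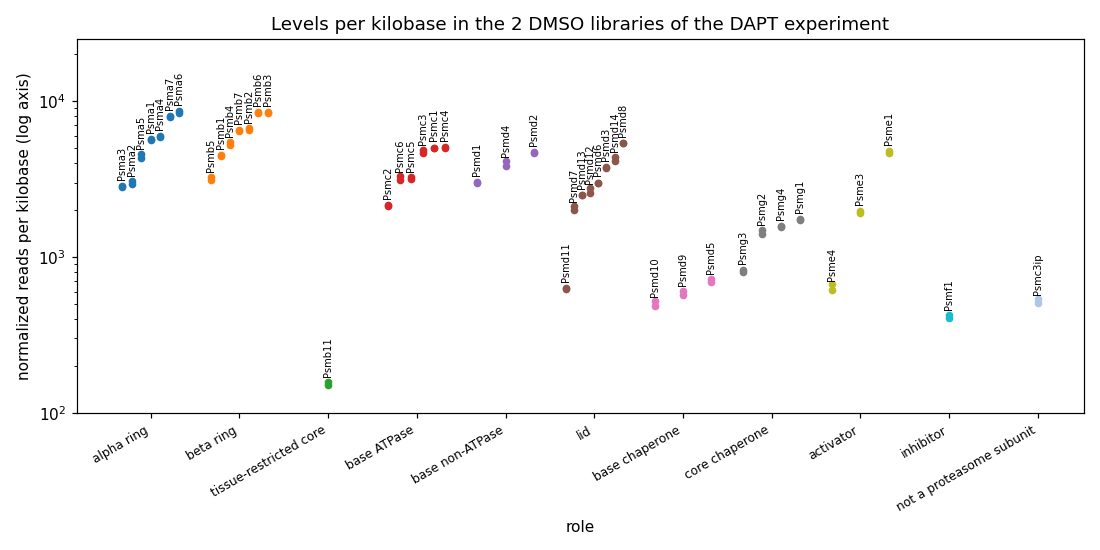
Normalized reads per kilobase of transcript (log axis) of each detected member in the 2 DMSO libraries of the DAPT experiment, 1 point per library, grouped by role. The core rings lie between 2803 and 8668, chaperones and Psmf1 lie at or below 1745, and Psmb11 lies lowest.

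DAPT against its DMSO asks what inhibition of gamma-secretase did to these genes. The proteasome genes fell across every part of the particle, by modest amounts. Called lower were 37 of 44 members, and 1 was higher, where 43.2% of the 12840 genes tested were called, 23.1% lower and 20.1% higher. The median change of the members was -0.20 on the log2 scale and that of all genes tested was 0.00. Both DAPT libraries lay below both controls for 41 members, against 35.5% of all genes. All 7 alpha subunits, all 7 beta subunits of the standard rings and all 4 core chaperones were called lower. So were 5 of 6 ATPases, 7 of 8 lid subunits and 2 of 3 in each of the base scaffold and base chaperone groups, but only 1 of 3 activators. The smallest falls of the beta ring were those of Psmb1 (-0.093) and Psmb5 (-0.13). Neither passed by the adjusted p of the authors' deposited table (0.096 and 0.097). Not called were Psmc3, Psmd4, Psmd8, Psmd10, Psme1 and Psme4, with changes from -0.10 to 0.042. Without DAPT library 2, 27 members were called lower. By the adjusted p of the authors' deposited table, 29 members were lower and Psmb11 did not pass, where 18% of genes were lower and 13.7% higher.

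The largest falls with DAPT were in assembly chaperones and an activator. Psmg2, whose protein pairs with that of Psmg1 to start assembly of the alpha ring, was at 1218 and 1047 with DAPT against 1479 and 1583 with DMSO (log2 change -0.44 ± 0.062, adjusted p = 4.6e-06). Psmg1 was at 1397 and 1365 with DAPT against 1804 and 1822 with DMSO (-0.39 ± 0.048, adjusted p = 5.8e-07). Psme3, which encodes the nuclear activator PA28 gamma, was at 3962 and 3959 with DAPT against 5124 and 5228 with DMSO (-0.39 ± 0.038, adjusted p = 2.3e-08). In each of the 3 genes both DAPT libraries lay well below both controls, and Psmg2 fell by 26.2%, Psmg1 fell by 23.8% and Psme3 fell by 23.5%. The DAPT replicates of Psmg2 differed more from each other than those of Psme3 did.

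The only member higher with DAPT was Psmb11, which encodes the beta subunit specific to cortical thymic epithelial cells, where it forms the thymoproteasome. It was at 773 and 757 with DAPT against 673 and 643 with DMSO (0.22 ± 0.065, adjusted p = 0.0091). The groups did not overlap, but the call was lost without DAPT library 1 (0.068), and the authors' deposited table gives an adjusted p of 0.10 for it. The transcript of Psmb11 used for its length has 1 exon, and the gene is annotated at chr14:54621433-54629556 on the plus strand (GRCm38, GENCODE vM21). Its neighbour there is Psmb5, at chr14:54614119-54618022 on the minus strand.

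Apicidin against its DMSO asks what histone deacetylase inhibition did, and members were called in both directions. Of 44, 10 were called higher, 5 lower and 29 neither, where 38.1% of the 12463 genes tested were called, 18.2% higher and 19.9% lower, so 15 of 44 is near the share of all genes. The members' median was 0.04 and that of all genes was 0.00. Without apicidin library 2 the members' median was 0.0099, and without DMSO library 1 it was 0.068. Called higher were 2 alpha subunits, Psmb2, 2 ATPases, 4 lid subunits and the activator Psme4. Called lower were the beta subunit Psmb6, the chaperones Psmd9 and Psmg4, the activator Psme1 and Psmc3ip. The count of members called lower was 3 without apicidin library 1 and 8 without DMSO library 2. The authors' deposited table gives 8 members higher and 2 lower, where 9.95% of genes were higher and 11.6% lower.

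The strongest rise with apicidin was in Psmc1, a base ATPase, at 4816 and 4858 with apicidin against 3906 and 3739 with DMSO (0.34 ± 0.042, adjusted p = 5.7e-06). Psmd3, a lid subunit, was at 5270.4 and 5122 with apicidin against 4183 and 4409 with DMSO (0.27 ± 0.043, adjusted p = 7.2e-05), and Psma1 at 3021 and 3263 with apicidin against 2669 and 2641 with DMSO (0.24 ± 0.046, adjusted p = 4.4e-04). All 3 rose with no overlap between groups, by 26.6%, 21.0% and 18.3%. The strongest fall was in Psme1, which encodes the alpha subunit of the interferon-inducible activator PA28, at 2588 and 2571 with apicidin against 3526 and 3422 with DMSO (-0.43 ± 0.042, adjusted p = 4.1e-07). Psmg4, a chaperone of the alpha ring, was at 371 and 385 with apicidin against 527 and 469 with DMSO (-0.39 ± 0.082, adjusted p = 9.8e-04). Psmc3ip was at 287 and 300.1 with apicidin against 358 and 384 with DMSO (-0.34 ± 0.089, adjusted p = 0.0063). Psme1 fell by 25.7%, Psmg4 fell by 23.9% and Psmc3ip fell by 20.8%, again without overlap.

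With shHdac3 against the scrambled hairpin, which asks what lower Hdac3 did, the members mostly rose. Of 44, 23 were called higher and 1 lower, where 41.9% of the 12482 genes tested were called, 22.5% higher and 19.4% lower. The members' median was 0.14 and that of all genes was 0.00, and both shHdac3 libraries lay above both controls for 31 members, against 35.6% of all genes. The ATPases rose as a whole group, 6 of 6, with a median of 0.26. By the authors' adjusted p Psmc4 (0.055) did not pass. Also called higher were 5 of 7 alpha subunits, 5 of 8 lid subunits, 2 of 3 base scaffold subunits, 2 of 3 activators and the inhibitor Psmf1. The beta ring had 2 of 7 called higher (median 0.07), and none of the 4 core chaperones or 3 base chaperones was called. Without shHdac3 library 1, or without scrambled library 2, 18 members were called higher. Between the scrambled libraries, library 1 lay above library 2 for most members, as the plot by library shows. By the authors' deposited table, 16 members were higher and Psmb11 did not pass, where 13.7% of genes were higher and 10.2% lower.

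Psmc1 again rose most, at 4894 and 4762 with shHdac3 against 3889.8 and 3917 with scrambled (0.31 ± 0.044, adjusted p = 1.7e-07). Psmc2, another base ATPase, was at 2222 and 2057 with shHdac3 against 1792 and 1684 with scrambled (0.30 ± 0.051, adjusted p = 3.9e-06), and the lid scaffold subunit Psmd7 at 2266 and 2146 with shHdac3 against 1858 and 1736 with scrambled (0.30 ± 0.050, adjusted p = 3.6e-06). The 3 genes rose by 23.7%, 23.0% and 22.8% without overlap between groups. The single member called lower was Psmb11, at 333 and 381 with shHdac3 against 447 and 387 with scrambled (-0.22 ± 0.091, adjusted p = 0.043). Its groups were only narrowly apart and the call was lost without scrambled library 1 (0.45) or shHdac3 library 1 (0.36). Under apicidin Psmb11 was at 449.7 and 439 against 406 and 389 in the controls (0.16 ± 0.078, adjusted p = 0.11), which did not pass.

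**Figure D4:**
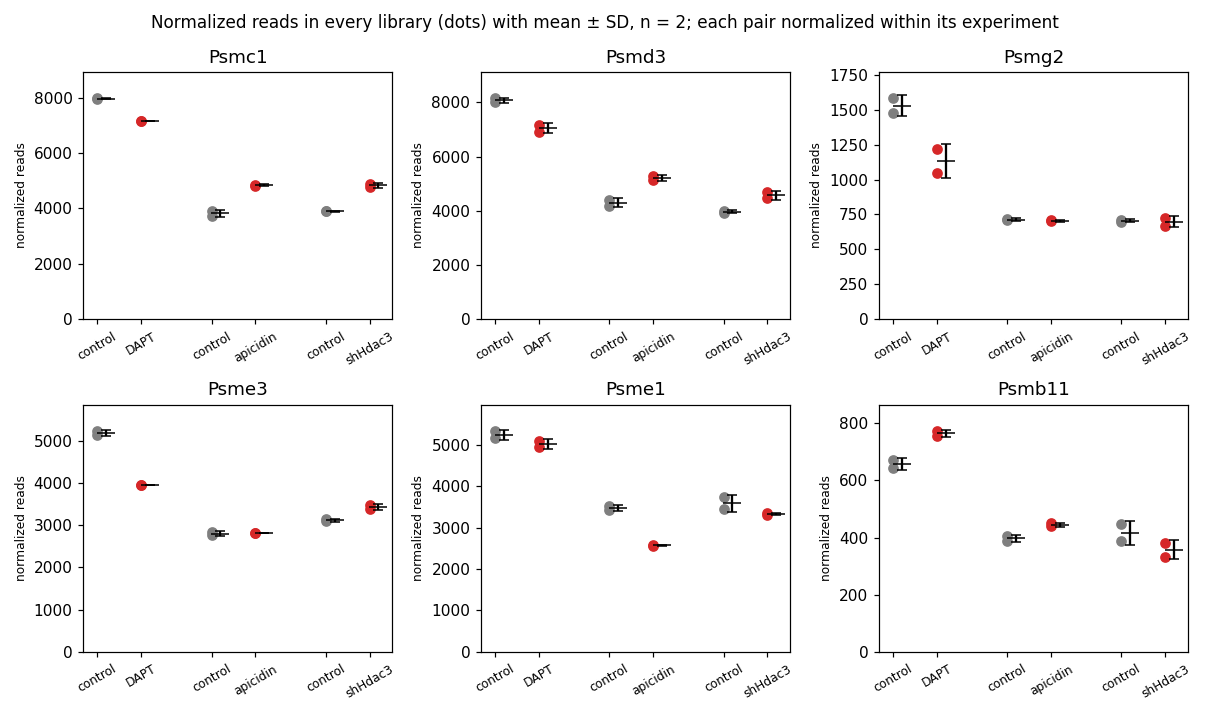
Normalized reads of 6 members in every library (dots), with mean ± SD of n = 2 beside them; controls grey, treated red, axes from 0. Levels compare only within an experiment, since each was normalized on its own. Psmc1 and Psmd3 lie lower with DAPT and higher with apicidin and shHdac3, Psmg2 and Psme3 are lower with DAPT, and Psme1 is lower with apicidin.

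Among the alpha subunits, which form the gate of the core, DAPT gave falls from -0.14 (Psma6) to -0.33 (Psma3). Psma3 was at 6541 and 6298 with DAPT against 7978 and 8157 with DMSO (-0.33 ± 0.037, adjusted p = 1.8e-07). Psma6, the least changed of the ring with DAPT, was at 8110.3 and 8046 with DAPT against 8775 and 9032 with DMSO and its call was lost without DAPT library 2 (0.060). With shHdac3 the 7 changes ranged from 0.083 (Psma4, not called) to 0.19 (Psma2). Leaving out scrambled library 2 took Psma2 from 0.19 to 0.11 and Psma3 from 0.16 to 0.11. It took Psma5 from 0.18 to 0.12 and Psma6 from 0.15 to 0.10. The calls of Psma3, Psma5 and Psma6 were lost in that fit. Without shHdac3 library 1 Psma3 changed by 0.10 and Psma6 by 0.12, and both calls were again lost. Among the called alpha subunits, Psma1 alone kept its shHdac3 call in every fit that left out a library. By the authors' adjusted p, Psma3 (0.068) and Psma6 (0.070) did not pass with shHdac3. Psma2 was at 4296 and 4374 with shHdac3 against 4026 and 3601 with scrambled (0.19 ± 0.047, adjusted p = 0.0011), and without scrambled library 2 (0.13) it did not pass. Psma1 and Psma6 rose with apicidin (log2 changes 0.24 and 0.21), and the other 5 alpha subunits stood between -0.033 and 0.087.

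The 3 proteolytic beta subunits fell with DAPT, Psmb6 alone of them passed with apicidin and Psmb5 alone with shHdac3. Psmb5, which carries the chymotrypsin-like activity, was at 2577 and 2643 with DAPT against 2916 and 2790.2 with DMSO (-0.13 ± 0.043, adjusted p = 0.019), a call lost without DAPT library 1 (0.19), DAPT library 2 (0.065) or DMSO library 1 (0.073). Psmb6, with the caspase-like activity, was at 6289 and 5960.2 with DAPT against 6732 and 6671 with DMSO (-0.13 ± 0.038, adjusted p = 0.0081), lost without DAPT library 2 (0.24). Psmb7, with the trypsin-like activity, was at 6781 and 6723 with DAPT against 7458 and 7561 with DMSO (-0.15 ± 0.036, adjusted p = 0.0014). The DAPT libraries lay below the controls for all 3. With apicidin Psmb6 was at 2930.1 and 3194 against 3427 and 3416 in the controls (-0.16 ± 0.046, adjusted p = 0.010), a call lost without apicidin library 1 (0.23). Psmb5 was at 1413 and 1447 with apicidin against 1593 and 1516 with DMSO (-0.12 ± 0.049, adjusted p = 0.060) and Psmb7 at 3183 and 3289 with apicidin against 3293 and 3208 with DMSO (-0.0065 ± 0.042, adjusted p = 0.92), neither of which passed. Only for Psmb7 did the groups overlap.

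With shHdac3 Psmb5 was at 1774 and 1783 against 1722 and 1517 in the controls (0.14 ± 0.053, adjusted p = 0.033), and leaving out scrambled library 2 (0.62), shHdac3 library 1 (0.056) or shHdac3 library 2 (0.068) ended that call. Psmb6 was at 3541 and 3606 with shHdac3 against 3768 and 3309 with scrambled (0.017 ± 0.049, adjusted p = 0.81) and Psmb7 at 3572 and 3423 with shHdac3 against 3442 and 3246 with scrambled (0.065 ± 0.046, adjusted p = 0.27). The groups of Psmb6 and Psmb7 overlapped. Psmb2, a non-catalytic beta subunit, was the member of its ring that passed in all 3 experiments. It was lower with DAPT (-0.21 ± 0.039, adjusted p = 9.5e-05) and higher with apicidin (0.19 ± 0.044, adjusted p = 0.0020) and with shHdac3 (0.16 ± 0.046, adjusted p = 0.0052). Its shHdac3 call was lost without shHdac3 library 1 (0.072). Exonic bases of Psmb7 overlap those of Nek6 on the opposite strand over 34.9% of their length, and GENCODE vM21 lists 4 pseudogenes with Psm names, among them copies of Psmb5, Psmb6 and Psmb7. Whether the authors counted by strand is not given in the sources used here, so the values of Psmb7 may hold reads of Nek6. How reads that match more than 1 place were counted is not given either. The values of Psmb5, Psmb6 and Psmb7 may therefore hold reads of their pseudogenes. Psmb5 also shares 12.1% of its exonic bases with Mir686 on the same strand.

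Psma8, the alpha subunit of the testis proteasome, was listed at 0 in all 12 libraries. A count of 0 allows up to 3 reads in each library, for counting error only.

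The 6 ATPases form the ring that unfolds substrates, and each of them had a higher response to shHdac3 than to DAPT in the test of differences given below. With DAPT their changes ran from -0.22 (Psmc5) to -0.061 (Psmc3, not called). With shHdac3 they ran from 0.14 (Psmc4) to 0.31 (Psmc1). Psmc3 was at 4472 and 4476 with shHdac3 against 3833 and 3709 with scrambled (0.25 ± 0.045, adjusted p = 1.2e-05), and at 7505 and 7341 with DAPT against 7889.6 and 7601 with DMSO (-0.061 ± 0.037, adjusted p = 0.20). Psmc5 was at 2357 and 2264 with shHdac3 against 2026 and 1875 with scrambled (0.25 ± 0.049, adjusted p = 6.5e-05) and at 3555 and 3707 with DAPT against 4291 and 4152 with DMSO (-0.22 ± 0.040, adjusted p = 1.3e-04). Both shHdac3 libraries lay above both controls in all 6 genes. With apicidin, Psmc1 and Psmc6 (0.18 ± 0.043, adjusted p = 0.0038) rose while Psmc3 (-0.10) and Psmc5 (-0.068) lay below their controls without passing. The DAPT call of Psmc6 (-0.10 ± 0.039, adjusted p = 0.035) was lost without DAPT library 1 (0.071), DAPT library 2 (0.32) or DMSO library 2 (0.20).

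Psmd1 and Psmd2, the large scaffolds of the base that hold ubiquitin receptors and shuttles, both fell with DAPT and rose with shHdac3. Psmd1 was at 7788 and 7769.9 with DAPT against 9296 and 9413 with DMSO (-0.27 ± 0.036, adjusted p = 2.2e-06) and at 5138 and 4894 with shHdac3 against 4159 and 4283 with scrambled (0.25 ± 0.045, adjusted p = 1.1e-05). Psmd2 was at 11688 and 11923 with DAPT against 13813 and 13872 with DMSO (-0.23 ± 0.035, adjusted p = 1.4e-05) and at 7811 and 7604 with shHdac3 against 6582 and 6661 with scrambled (0.22 ± 0.044, adjusted p = 6.9e-05). Their groups did not overlap in either experiment, and with apicidin they were not called (0.078 and 0.056). Psmd4, the ubiquitin receptor of the base, passed in none of the 3 experiments, at 5059 and 4766 with DAPT against 5451 and 5091 with DMSO (-0.10 ± 0.042, adjusted p = 0.057). It passed with DAPT when DAPT library 1 (0.048) or DMSO library 2 (8.3e-04) was left out.

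In the lid, Psmd14 encodes the deubiquitinase that removes the chain before degradation. It was at 5614 and 5440.2 with DAPT against 6397 and 6766 with DMSO (-0.25 ± 0.039, adjusted p = 1.6e-05) and at 3000.2 and 2955 with shHdac3 against 2626 and 2682 with scrambled (0.17 ± 0.046, adjusted p = 0.0028). With apicidin it was at 2483 and 2774 against 2870.0 and 2471 in the controls (-0.021 ± 0.062, adjusted p = 0.82), where the controls spanned both treated libraries. Psmd7, its partner, was at 2493 and 2595 with DAPT against 3146 and 3336 with DMSO (-0.35 ± 0.044, adjusted p = 8.5e-07), the largest lid fall with DAPT. Psmd8 was called with apicidin alone, at 5474 and 5539.6 with apicidin against 4700.5 and 4772 with DMSO (0.22 ± 0.040, adjusted p = 3.9e-04). Psmd3, Psmd6 and Psmd12 rose with both apicidin and shHdac3: with shHdac3 by 0.21, 0.28 and 0.26 on the log2 scale. With apicidin Psmd6 rose by 0.20, a call lost without DMSO library 2 (0.069), and Psmd12 by 0.13, a call lost without DMSO library 2 (0.12), apicidin library 1 (0.055) or apicidin library 2 (0.19). Psmd11 fell with DAPT (-0.17 ± 0.048, adjusted p = 0.0048), which did not pass without DAPT library 1 (0.090), and Psmd13 did too (-0.10 ± 0.038, adjusted p = 0.038), which did not pass without DAPT library 1 (0.30) or DAPT library 2 (0.13).

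All 4 core chaperones and 2 of 3 base chaperones were lower with DAPT, and none was called with shHdac3. Psmg3 was at 576 and 546 with DAPT against 732 and 711 with DMSO (-0.36 ± 0.068, adjusted p = 1.5e-04) and Psmg4 at 793 and 746 with DAPT against 870.0 and 861 with DMSO (-0.17 ± 0.062, adjusted p = 0.030), the latter lost without DAPT library 2 (0.26) or DMSO library 1 (0.068). Psmd9, which holds ATPase pairs before the base is complete, was at 1241 and 1255 with DAPT against 1581 and 1476 with DMSO (-0.29 ± 0.052, adjusted p = 8.2e-05). With apicidin Psmd9 was at 798 and 859 against 942 and 941 in the controls (-0.19 ± 0.058, adjusted p = 0.018), lost without apicidin library 1 (0.21). Psmd10, also known as gankyrin, was at 627 and 711 with DAPT against 688 and 741 with DMSO (-0.096 ± 0.072, adjusted p = 0.30), at 368 and 417 with apicidin against 383 and 361 with DMSO (0.075 ± 0.088, adjusted p = 0.53) and at 374 and 352 with shHdac3 against 411 and 369.9 with scrambled (-0.10 ± 0.089, adjusted p = 0.36). Its groups overlapped in every experiment. With shHdac3 the 4 Psmg genes ranged from -0.18 (Psmg4) to 0.086 (Psmg1). Exonic bases of Psmg3 overlap those of Gm26938 on the same strand over 26.8% of their length, so its values may hold reads of that gene.

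The calls of the proteins that bind the ends of the core were not alike. Psme1 was not called with DAPT, at 5105 and 4948 with DAPT against 5341 and 5165 with DMSO (-0.064 ± 0.039, adjusted p = 0.20), nor with shHdac3, at 3360.2 and 3310.3 with shHdac3 against 3736 and 3451 with scrambled (-0.11 ± 0.046, adjusted p = 0.060). Psme3 rose with shHdac3, at 3480.5 and 3389 with shHdac3 against 3087 and 3136 with scrambled (0.14 ± 0.045, adjusted p = 0.0092), a call lost without scrambled library 1 (0.062) or shHdac3 library 1 (0.070). With apicidin Psme3 was at 2819.6 and 2814 against 2756 and 2843 in the controls (0.0089 ± 0.042, adjusted p = 0.89), its groups overlapping. Psme4, which encodes the large nuclear activator PA200, was at 2248 and 2229 with apicidin against 1914 and 1891 with DMSO (0.23 ± 0.044, adjusted p = 4.1e-04) and at 2361 and 2477 with shHdac3 against 2093 and 2194 with scrambled (0.17 ± 0.048, adjusted p = 0.0028). The shHdac3 call of Psme4 was lost without scrambled library 1 (0.053). With DAPT Psme4 was at 4242 and 4281 against 3959 and 4324 in the controls (0.042 ± 0.043, adjusted p = 0.46), with overlap.

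Psmf1, the inhibitor that binds the core end in place of an activator, was at 941 and 920.2 with shHdac3 against 792 and 737 with scrambled (0.28 ± 0.063, adjusted p = 2.2e-04). It was at 998 and 1015 with apicidin against 908 and 955 with DMSO (0.11 ± 0.055, adjusted p = 0.12), which did not pass, and at 1407 and 1442 with DAPT against 1537 and 1607 with DMSO (-0.14 ± 0.050, adjusted p = 0.025), a call lost without DAPT library 1 (0.19), DAPT library 2 (0.074) or DMSO library 2 (0.11). Its groups did not overlap in any of the 3, lower with DAPT and higher with the other treatments. Psmc3ip, not a subunit, was at 562 and 576 with DAPT against 651 and 691 with DMSO (-0.24 ± 0.069, adjusted p = 0.0076), a call lost without DAPT library 1 (0.051) or DMSO library 2 (0.059). With shHdac3 it was at 383 and 381 against 352 and 339 in the controls (0.14 ± 0.088, adjusted p = 0.20). Its exonic bases overlap those of Mlx on the opposite strand over 29.8% of their length.

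Whether the responses themselves differed was tested with limma over all 12 libraries, as the difference of a pair of treated-against-control changes. The DAPT response differed from the apicidin response for 33 of 44 members, lower for 32 and higher for Psme1 (0.35 ± 0.059, adjusted p = 5.0e-05). Over the 12204 genes tested, 37.3% were called, 20.3% lower and 17% higher. The largest differences were Psma1 (-0.51 ± 0.061, adjusted p = 6.0e-07), Psmc1 (-0.51 ± 0.053, adjusted p = 9.2e-08) and Psmd3 (-0.48 ± 0.057, adjusted p = 5.1e-07). All 7 alpha subunits differed, and 4 of 7 in the beta ring. The calls of Psma7, Psmb4 and Psmb7 did not hold in every fit that left out 1 library. Without apicidin library 2 their differences were -0.13, -0.16 and -0.13. Also lost in at least 1 such fit were the calls of Psmd4, Psmd7, Psmd13, Psmd14, Psme4 and Psmg3. Catalytic Psmb5 (-0.019 ± 0.073, adjusted p = 0.87) and Psmb6 (0.019 ± 0.071, adjusted p = 0.86) were not called.

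The DAPT response differed from the shHdac3 response for 35 of 44, lower for 34 and higher for Psmb11 (0.43 ± 0.11, adjusted p = 0.0032), where 46.5% of genes were called, 25.4% lower and 21% higher. Psmd7 (-0.65 ± 0.071, adjusted p = 8.0e-08), Psme3 (-0.54 ± 0.054, adjusted p = 2.7e-08) and Psmd1 (-0.52 ± 0.056, adjusted p = 6.8e-08) differed most. Every alpha subunit and every ATPase differed, as did 4 of 7 in the beta ring and 1 of 3 activators. The calls of Psmd4, Psmd9 and Psmg3 were lost in at least 1 fit that left out 1 library. Psmg4 (0.0020 ± 0.10, adjusted p = 0.99), Psmd10 (0.0011 ± 0.12, adjusted p = 0.995) and Psme1 (0.036 ± 0.059, adjusted p = 0.65) were among the 9 not called.

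Apicidin and shHdac3, both directed at histone deacetylases, differed from each other for 13 of 44 members. Of these 11 were lower and 2 higher under apicidin, where 35.8% of genes were called, 19.8% lower and 16% higher, so 13 of 44 is near the share of all genes. Among those lower, Psmc3ip (-0.48 ± 0.11, adjusted p = 0.0014), Psmd7 (-0.41 ± 0.071, adjusted p = 1.0e-04) and Psmc3 (-0.34 ± 0.055, adjusted p = 3.9e-05) differed most, followed by Psme1 (-0.32 ± 0.059, adjusted p = 2.0e-04). The ATPases Psmc2 (-0.26 ± 0.068, adjusted p = 0.0041) and Psmc5 (-0.31 ± 0.065, adjusted p = 6.7e-04) were among the others, while Psmc1 (0.038 ± 0.053, adjusted p = 0.61) was not called. Higher under apicidin were Psmb11 (0.39 ± 0.11, adjusted p = 0.010), a call lost without shHdac3 library 1 (0.067) or scrambled library 1 (0.075), and Psmd8 (0.16 ± 0.054, adjusted p = 0.024), a call lost without apicidin library 2 (0.070), DMSO library 1 (0.060), shHdac3 library 2 (0.080) or scrambled library 1 (0.12). Without shHdac3 library 1 the count was 8.

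**Figure D5:**
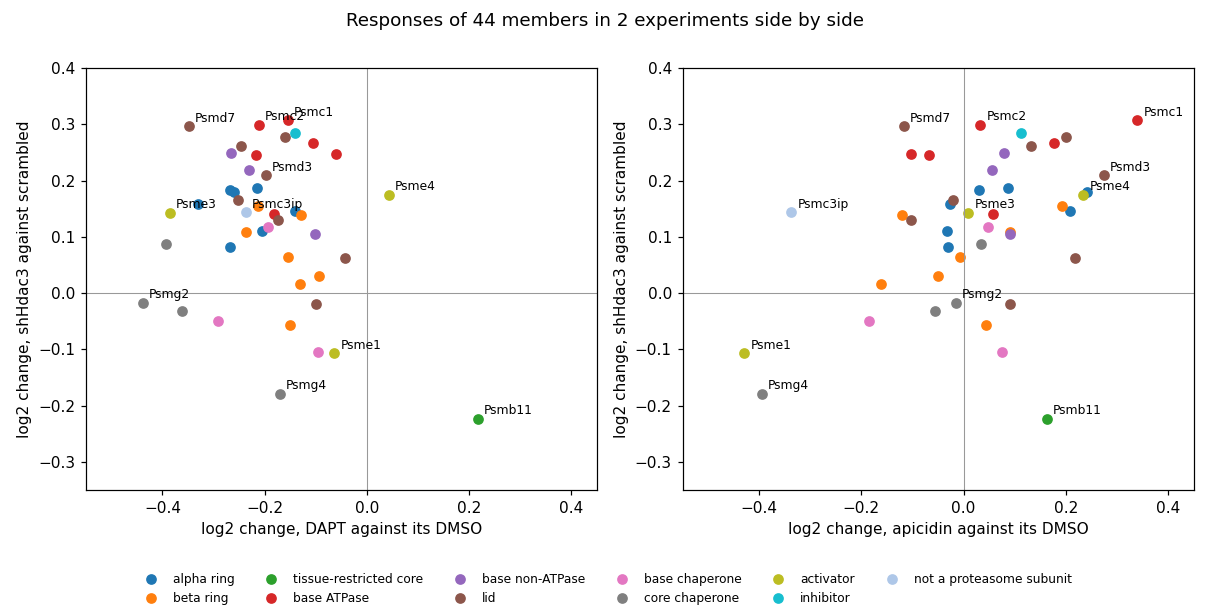
Log2 change with shHdac3 (y axis) against that with DAPT (left, x axis) and with apicidin (right, x axis), 1 point per tested member, colour for role. On the left most members lie at upper left, lower with DAPT and higher with shHdac3, and Psmb11 (0.22 and -0.22) lies at lower right; on the right the members spread to both sides.

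Genes that work with the proteasome but carry other symbols were read from lists compiled from general knowledge. Of 4 other subunit or chaperone genes, DAPT lowered 3: Pomp (-0.22 ± 0.040, adjusted p = 8.9e-05), a core maturation factor, the ubiquitin receptor gene Adrm1 (-0.18 ± 0.045, adjusted p = 0.0022) and AI314180 (-0.12 ± 0.037, adjusted p = 0.0093). With shHdac3 Adrm1 (0.22 ± 0.048, adjusted p = 2.2e-04) and AI314180 (0.14 ± 0.045, adjusted p = 0.010) were higher and Shfm1 (-0.11 ± 0.047, adjusted p = 0.0497) lower. With apicidin AI314180 alone passed, as lower (-0.13 ± 0.042, adjusted p = 0.019). The medians of these 4 genes were -0.15 with DAPT, 0.11 with shHdac3 and -0.07 with apicidin.

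Of the 4 immunoproteasome genes left out by name, all fell with apicidin. The largest changes were in Psmb10, an inducible catalytic subunit, at 681 and 657 against 1066 and 1087 in the controls (-0.69 ± 0.057, adjusted p = 5.9e-08), and Psme2, the partner of Psme1, at 1334 and 1482 against 2009.9 and 1849 in the controls (-0.45 ± 0.056, adjusted p = 6.3e-06). Psmb8 fell by less (-0.27 ± 0.045, adjusted p = 1.6e-04). Psmb9 was lower too (-0.15 ± 0.048, adjusted p = 0.017). With DAPT Psme2 alone was lower (-0.20 ± 0.039, adjusted p = 2.1e-04), and with shHdac3 Psmb10 alone was higher (0.24 ± 0.055, adjusted p = 4.9e-04).

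Of 9 deubiquitinase and shuttle genes, 7 were lower with DAPT, among them the proteasome-bound deubiquitinase Usp14 (-0.33 ± 0.045, adjusted p = 2.8e-06) and Txnl1 (-0.28 ± 0.038, adjusted p = 2.5e-06). With shHdac3 7 were higher, among them Txnl1 (0.28 ± 0.047, adjusted p = 5.1e-06), the deubiquitinase Uchl5 (0.25 ± 0.057, adjusted p = 3.1e-04) and Usp14 (0.22 ± 0.053, adjusted p = 7.8e-04), and Ubqln2 was lower (-0.45 ± 0.19, adjusted p = 0.044). With apicidin the shuttles Rad23b (0.15 ± 0.041, adjusted p = 0.0079) and Ubqln1 (0.15 ± 0.043, adjusted p = 0.013) were higher. The medians of the 9 were -0.26 with DAPT, 0.14 with shHdac3 and 0.04 with apicidin.

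Of 6 ubiquitin and E1 genes, 4 were lower with DAPT, among them Uba6 (-0.21 ± 0.061, adjusted p = 0.0064). Rps27a, a fusion of ubiquitin to a ribosomal protein, was lower with apicidin (-0.32 ± 0.057, adjusted p = 2.8e-04) and with shHdac3 (-0.23 ± 0.050, adjusted p = 1.4e-04), and 1 other passed as lower in each. Of 4 genes for extraction of ubiquitinated proteins, 2 were lower with DAPT, Nsfl1c (-0.26 ± 0.043, adjusted p = 2.7e-05) and Nploc4 (-0.10 ± 0.039, adjusted p = 0.034). With apicidin Nploc4 was higher (0.14 ± 0.045, adjusted p = 0.024), and with shHdac3 3 were, led by Nploc4 (0.30 ± 0.046, adjusted p = 4.0e-07).

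Nfe2l1, which encodes the main known inducer of proteasome genes, was not called in any experiment. It was at 2557 and 2632 with DAPT against 2704 and 2764 with DMSO (-0.076 ± 0.042, adjusted p = 0.16), at 1762 and 1591 with apicidin against 1778 and 1739 with DMSO (-0.071 ± 0.052, adjusted p = 0.30) and at 1682 and 1577 with shHdac3 against 1788 and 1756 with scrambled (-0.12 ± 0.051, adjusted p = 0.0501). Ddi2, the protease that activates NFE2L1 protein, was at 713 and 734 with DAPT against 841 and 872 with DMSO (-0.24 ± 0.062, adjusted p = 0.0027) and at 849 and 821 with shHdac3 against 710.4 and 729 with scrambled (0.21 ± 0.064, adjusted p = 0.0055). The related factor gene Nfe2l2 was at 1872 and 2106 with DAPT against 2163 and 2245 with DMSO (-0.15 ± 0.052, adjusted p = 0.022) and at 2063 and 2010.4 with shHdac3 against 1723 and 1757 with scrambled (0.23 ± 0.049, adjusted p = 1.7e-04). Both were lower with DAPT and higher with shHdac3 without overlap, and neither was called with apicidin. Ngly1, the glycanase that acts on NFE2L1, was higher with shHdac3 (0.18 ± 0.073, adjusted p = 0.039). Transcript levels do not measure the activity of these proteins.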

How the data were processed

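Total RNA from 12 Beko libraries was depleted of ribosomal RNA and sequenced with a stranded kit, per the labels' protocols; groups come from the sample titles. The submitters' processing notes name mm9, FastQC, Bowtie2, TopHat and DESeq2, while the read counter, its annotation and whether it used strand remain not given in the sources used here. Per the file headers, the authors deposited 1 table per experiment with a normalized signal per gene and library, and with their own log2 fold changes, test statistics (a score) and p-values. Each deposited signal value equals a whole number of reads over a size factor of its library (100% came out whole within a relative 1e-06), and depths are sums of the recovered reads.

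The design allowed for raw counts and named limma for normalized values, which the tables hold. The main test was limma 3.58.1 in R 4.3.3, with the variance trend on mean level, applied to log2(value + 1), two-sided, without covariates, on the 4 libraries of an experiment, for genes at 10 or more in at least 2 of them, with Benjamini-Hochberg adjustment over all genes tested at 0.05. A fold change on this scale understates that of low genes. Errors after ± are SEs of that fit. Differences between responses used all 12 libraries with recomputed size factors. Count tests on recovered reads (edgeR 4.0.16, DESeq2 1.42.0) were alternatives. The members and lists were chosen with earlier results of these data known. Genes with full values are the 3 largest rises and falls that passed per comparison, the catalytic subunits and the members of special role; others are named by change. Library values of Psma2, Psma3, Psma6, Psmc3, Psmc5, Psmd1, Psmd2, Psmd4, Psmd8, Psmd9, Psmg3 and Nfe2l1 were added after they were seen. Single values of some genes outside the members are not reported here. Lengths (longest APPRIS principal transcript) and overlaps are from the GENCODE vM21 basic annotation (GRCm38), since no mm9 annotation was used; coordinates are on GRCm38. On simulated reads, genes changed 1.25-fold were recovered in 54%, 60% and 66% of cases (DAPT, apicidin, shHdac3; 12810, 12443 and 12499 genes), those changed 1.5-fold in 86% each, with 2, 9 and 9 false calls. For the DAPT and apicidin responses (12204 genes), differences of 1.5-fold were recovered in 74% of cases, with 7 false calls. Each simulation changed 50 genes at each fold, far fewer than were called in the data. Its false calls therefore do not measure those of the real tests. Folds under 1.25 were not simulated.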

Additional observations from a re-analysis of the deposited data

How the results depend on the processing

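Psma8, at 0 in every library, was not tested, and groups of 2 limit every call. Of the called members, 25 of 38 with DAPT, 11 of 15 with apicidin and 15 of 24 with shHdac3 kept their call in all 4 fits that left out 1 library. Over all alternatives, 1745 of 1848 single-member results kept their side of the threshold, 80 lost and 23 gained a call, and no called change turned direction; signs of changes that passed in neither setting were not compared. Pseudocounts of 0.5 and 5, a filter of 50 or more, TMM factors and, added after seeing the data, size factors and fits without histone and structural RNA symbols left the counts at 38, 15 and 24 called, except 25 with TMM for shHdac3. Upper-quartile factors moved the median of all genes by 0.04 at most and the members' DAPT median to -0.16, and gave 3 lower with shHdac3. DESeq2 on recovered reads kept 30 of the 38 DAPT calls, 11 of the 15 with apicidin and 16 of the 24 with shHdac3. Upper-quartile factors kept 31, 15 and 22 of them, and fits without a filter kept 35, 15 and 21. The DAPT count of members higher was 0 with DESeq2 and 0 by the authors' adjusted p. Members lower with apicidin numbered 2 with DESeq2 and 2 by the authors' adjusted p. Members lower with shHdac3 numbered 0 without a filter, 2 with edgeR, 0 with DESeq2 and 0 by the authors' adjusted p; the causes were not tested.

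Leaving out 1 library gave 28 to 37 called with DAPT (27 to 35 lower, 0 to 2 higher), 12 to 18 with apicidin (8 to 13 higher, 3 to 8 lower) and 18 to 26 with shHdac3 (18 to 25 higher, 0 to 2 lower). Differing responses ranged from 26 to 33, from 32 to 37 and, for apicidin against shHdac3, from 8 to 15. A lone library is assumed there to vary like the other groups. The replicate block gave 39, 15 and 25 called, and 34, 35 and 14 differing responses. Deviations of libraries sharing a replicate number correlated at 0.019, 0.039 and 0.011, so the numbers were not taken as pairs. Without Psmc3ip the counts were 37, 14 and 24. Genes outside the members were read from the main fit only.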
